A study of Mus musculus with 36 samples.

Results

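The livers compared here came from mice fed a diet with powder of tangerine tomato and from mice fed the same purified diet without tomato. The members were chosen by diet label alone and not by any measured value: 24 of the 36 libraries of the series, 12 titled Tangerine and 12 titled Control. All mice were male C57BL/6, an inbred strain, and were 10 weeks old. They were assigned to their diets at 4 weeks of age and fed for 6 weeks. The control diet was AIN93G, a purified rodent diet that both groups ate, and the tangerine group's diet held 10% (w/w) tangerine tomato powder in addition. Messenger RNA abundance was measured in each liver by RNA sequencing with a kit that marks strand. The other 12 libraries, from mice fed 10% red tomato powder, share these controls and enter here only as values placed beside the tangerine ones.

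Tangerine tomatoes carry a loss of carotenoid isomerase, so their fruit accumulates cis forms of lycopene in place of the all-trans form that colours red tomatoes. Absorbed carotenoids are carried to the liver, where they can be stored or cleaved by carotenoid oxygenases. The liver also handles plant compounds in stages. Cytochrome P450 enzymes oxidise them (phase I), transferases couple them to sugars, sulfate or glutathione (phase II), and transporters export the products. The receptors AHR, CAR and PXR and the factor NRF2 raise the transcription of many of these genes when foreign compounds or oxidants reach the cell. Much of this machinery sits in the pericentral hepatocytes, those that surround the central vein.

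Total counts ranged from 21290169 to 31872824 per library, with means of 26718800 ± 2964590 on control and 27492200 ± 2417500 on tangerine (SD, n = 12 each). These did not differ (two-sided permutation p 0.494, adjusted 0.921 over 16 library measures). Each library has its own mouse number and was taken as 1 mouse, although the stated group size allows for fewer mice in some groups. The 10 hepatocyte markers summed to between 110674 and 138420 CPM in control livers and between 93576 and 123118 CPM on tangerine, where CPM is a gene's counts scaled to a common library total. Tangerine library 192 had the highest sum of cholangiocyte markers (127 CPM, against at most 45.8 CPM in the other 23 libraries), of stellate cell markers (666 against 473 CPM) and of neutrophil markers (7.77 against 2.71 CPM). Tangerine library 216 held 377 counts over the 14 pancreatic acinar markers, against at most 3 counts in any of the other 23 tangerine and control libraries. Many genes that overlap another annotated gene had 0 counts throughout: 45 of the 52 listed genes at 0 in every library did so. A 0 is therefore given below as listed at 0. In whole liver, fewer cells of a type and less RNA per cell cannot be told apart.

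Which transcripts differed between tangerine powder and control was asked over 14068 genes. Cyp2c29 and Cyp1a2, a pair of hepatic cytochrome P450 genes, rose on tangerine, and no gene fell. These 2 genes make up 0.0142% of those tested (edgeR's quasi-likelihood test, Benjamini-Hochberg adjusted p under 0.05), and the share for lower genes was 0.0%. DESeq2 called 6 genes higher and 1 lower, and edgeR with 5 surrogate variables as covariates called 86 higher and 41 lower. Without adjustment, 770 genes (5.47%) had a p under 0.05, where 5% of the tested genes would be 703.4, and 197 (1.4%) had a p under 0.01. Of the 770, 326 (2.32%) were higher and 444 (3.16%) lower on tangerine. Differences were small in general. In the 11038 genes whose mean log2 CPM reached 1, the median absolute log2 fold change was 0.056 and the median standard error (SE) 0.084, and 5 genes differed by more than 1 log2 unit. Over all genes 44.6% were higher on tangerine, with a median log2 fold change of -0.01.

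**Figure D1:**
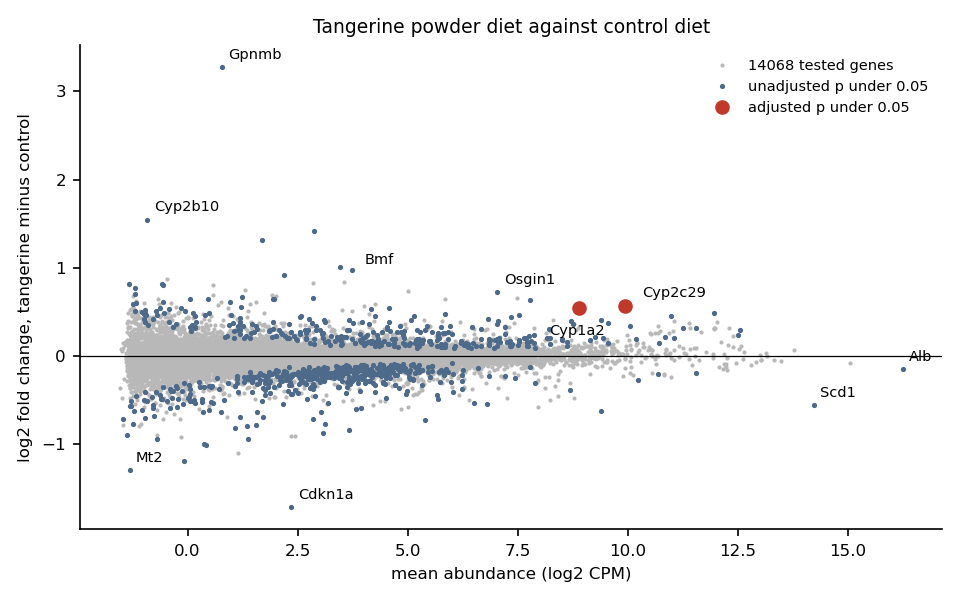
Log2 fold change of tangerine against control (vertical axis) by mean abundance in log2 CPM (horizontal axis) for 14068 genes, each point a gene. Both genes past the adjusted threshold, Cyp1a2 and Cyp2c29, are abundant and lie above 0. Genes with larger fold changes include Cdkn1a and Cyp2b10, of low abundance, and Osgin1 (0.72), which is more abundant than these.

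The 250 bases before the RefSeq start site of these genes (GRCm38.p6, 5′ to 3′ on the gene's strand) are shown because they are the only genes past the threshold. Capitals mark TATAAA, the TATA box, and AGGTCA, a half-site bound by nuclear receptors. GCGTG, the core of the element bound by AHR, and CACGTG, the E-box, were searched too. All were searched on both strands, and none of the matches overlap.
Cyp2c29, chr19:39286835-39287084, plus strand: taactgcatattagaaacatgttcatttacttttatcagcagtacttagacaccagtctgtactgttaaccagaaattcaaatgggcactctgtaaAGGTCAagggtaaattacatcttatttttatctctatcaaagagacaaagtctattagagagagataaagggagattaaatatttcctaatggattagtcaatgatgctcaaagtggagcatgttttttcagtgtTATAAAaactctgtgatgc
Cyp1a2, chr9:57683656-57683905, minus strand: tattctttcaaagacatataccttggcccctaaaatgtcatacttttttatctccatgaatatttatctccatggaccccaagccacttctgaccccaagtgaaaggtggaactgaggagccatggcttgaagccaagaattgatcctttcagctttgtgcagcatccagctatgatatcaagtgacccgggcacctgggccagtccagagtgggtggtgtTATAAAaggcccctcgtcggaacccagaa
In Cyp2c29, TATAAA begins at position -19 from the start site and AGGTCA at -154. In Cyp1a2, TATAAA begins at -29, and the other motifs were not found in these letters. Over 32851 promoter windows of the same length, 12.4% hold TATAAA, 14.0% AGGTCA, 28.2% GCGTG and 6.02% CACGTG. These matches are descriptions of sequence and not measured sites. The Cyp2c29 window lies inside the annotated span of the gene given below, and the Cyp1a2 window overlaps the end of its span. In both genes the RefSeq start site is therefore not the outermost end of that span.

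Cyp2c29 (ENSMUSG00000003053.17) (chromosome 19, 39269405 to 39330713, plus strand of GRCm38) codes for an enzyme that oxidises arachidonic acid and many drugs. It is a known target of CAR. On control it ranged from 563 to 986 CPM with a median of 687 CPM, and on tangerine from 787 to 1251 CPM with a median of 1052 CPM. Every tangerine liver exceeded the control median, and 9 exceeded all controls, so the groups overlapped only through the lowest tangerine livers and the highest control. The mean rose from 696 ± 116 to 1035 ± 142 CPM (SD, n = 12 each), a log2 fold change of 0.57 (edgeR adjusted p 0.00476, SE 0.093). On red powder the mean was 1218 CPM.

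Its annotated span overlaps the pseudogene Cyp2c53-ps (39229254 to 39274985), which had 0.316 ± 0.124 CPM on control and 0.560 ± 0.192 CPM on tangerine (log2 fold change 0.80, edgeR adjusted p 0.587, SE 0.264). This overlap lies before the RefSeq start site of Cyp2c29. Of the 50-base windows along the longest coding transcript of Cyp2c29, 2.08% occur in transcripts of another gene. The share was 30.1% for Cyp2c37, 30.7% for Cyp2c50 and 25.7% for Cyp2c54, so the abundance of these 3 genes is uncertain to the extent that reads were divided among them. Its nearest tested neighbours on chromosome 19 were also P450 genes. Cyp2c55 was 2.43 CPM on control and 2.45 CPM on tangerine (log2 fold change 0.01, SE 0.134), and Cyp2c38 was 48.2 and 46.1 CPM (-0.06, SE 0.296).

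Cyp1a2 (ENSMUSG00000032310.4) is found at 57676937 to 57683703 of chromosome 9 (minus strand, GRCm38). Its product clears caffeine and activates aromatic amines, and AHR is its best known inducer. Control livers ranged from 284 to 527 CPM with a median of 391 CPM, and tangerine livers from 432 to 726 CPM with a median of 596 CPM. Every tangerine liver exceeded the control median. In 10 the level was beyond the highest control, and the remaining pair lay inside the control range. Erbb3 was the only other gene with at least 10 tangerine livers above every control (2 genes, 0.0142% of those tested). The mean of Cyp1a2 rose from 401 ± 70.9 to 583 ± 84.0 CPM (SD, n = 12 each), with a log2 fold change of 0.54 (edgeR adjusted p 0.0115, SE 0.095). With the mouse number as covariate the fold change was 0.48 and the adjusted p 0.0838. On red powder the mean was 431 CPM.

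Cyp1a1, the neighbour of Cyp1a2 and the usual marker of AHR activity, was scarce, at 1.59 ± 0.375 CPM on control and 1.86 ± 0.291 CPM on tangerine (log2 fold change 0.22, edgeR adjusted p 0.959, SE 0.136). Of the 50-base windows of Cyp1a2, 4.97% are shared with another gene, all of them with Cyp1a1. Csk, the nearest tested gene on the other side, was at 56.3 and 57.4 CPM (log2 fold change 0.03, SE 0.047).

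**Figure D2:**
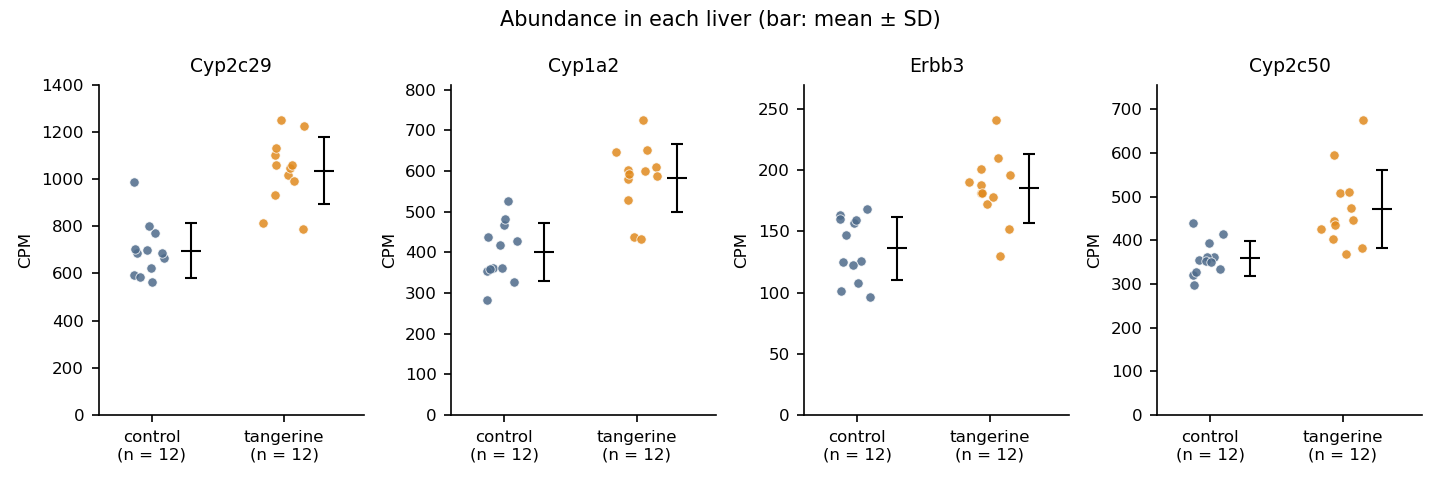
CPM (vertical axis) in each liver for 4 genes, by diet, with the mean and SD of 12 livers beside the points. The tangerine livers of Cyp2c29 and Cyp1a2 lie above the control median throughout, and Erbb3 and Cyp2c50 have the same direction without passing the adjusted threshold.

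Whether the increases in Cyp2c29 and Cyp1a2 were found in the same mice was examined within diets, with permutation tests adjusted over both diets. On tangerine, Pearson's r between them was -0.386 (permutation p 0.212, adjusted 0.425) and Spearman's rho -0.566 (permutation p 0.0586, adjusted 0.117; n = 12). Without the 2 livers farthest from the median of Cyp2c29, r was -0.324. On control, r was -0.039 (permutation p 0.905, adjusted 0.905) and rho -0.091 (permutation p 0.781, adjusted 0.781; n = 12), and r was 0.391 without its 2 farthest livers. No relation between both genes across mice passed the threshold.

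The next genes by p-value missed the adjusted threshold. Erbb3, on chromosome 10, codes for a neuregulin receptor of the EGF receptor family. It ranged from 96.5 to 168 CPM on control (median 136) and from 129 to 241 CPM on tangerine (median 185). The groups overlapped through 2 tangerine livers, and the log2 fold change was 0.44 (edgeR adjusted p 0.0587, SE 0.088). Erbb3 passed in 7 of 24 fits that left out 1 library and in 6 of 10 other settings.

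Ankrd55, on chromosome 13, ranged from 5.27 to 11.6 CPM on control (median 7.32) and from 6.85 to 37.7 CPM on tangerine (median 14.6). Of the 12 tangerine livers, 11 lay above the control median and 8 above every control. The log2 fold change was 1.01 (edgeR adjusted p 0.126, SE 0.213). It was 0.81 without tangerine library 216, and without tangerine library 192 it was 1.08 and passed (adjusted p 0.0275).

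Qtrt2, a subunit of the enzyme that places queuine in transfer RNA, was at 5.54 ± 0.939 CPM on control and 4.20 ± 0.723 CPM on tangerine (log2 fold change -0.40, edgeR adjusted p 0.245, SE 0.090). It overlaps Ccdc191, whose counts came to 54.9% of its own. The other 9 of the 10 lower genes with the smallest p had different roles. They included Rars2, a mitochondrial arginyl-tRNA synthetase (-0.19), the RNA helicase gene Ddx55 (-0.33), Trmt10c of mitochondrial RNase P (-0.28), the splicing factor gene Srsf6 (-0.20), and Wdr75 and Wdr43 of ribosome assembly (-0.29 each). Shld2 of the shieldin complex (-0.49), the noncoding gene Gm47818 (-0.70) and the transferrin receptor gene Tfrc (-0.59) completed them. Srsf6, Shld2 and Tfrc were below the control median in 12 of 12 tangerine livers, yet the adjusted p of these 9 genes ranged from 0.281 to 0.587.

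Among the higher genes, Med16 of the Mediator complex differed by 0.19, Wdr81 by 0.28, the ADP-ribosyltransferase gene Parp16 by 0.27 and the connexin gene Gjb2 by 0.20 on the log2 scale. Retreg3, a regulator of endoplasmic reticulum turnover, was 85.4 ± 5.55 CPM on control and 94.2 ± 2.99 CPM on tangerine, with 9 of 12 tangerine livers above every control. Its log2 fold change was 0.14 (edgeR adjusted p 0.553, SE 0.039). The spread between mice was narrow in this gene.

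Larger fold changes had wider spreads, and none passed. Bmf, a pro-apoptotic BH3-only gene, had medians of 10.7 CPM on control and 19.2 CPM on tangerine (log2 fold change 0.97, edgeR adjusted p 0.587, SE 0.285). Cdkn1a, the cell cycle inhibitor p21, had medians of 4.30 and 1.68 CPM (-1.72, edgeR adjusted p 0.587, SE 0.520). One control liver, library 188, reached 40.1 CPM of Cdkn1a, and without it the fold change was -0.87. Rn7s1 and Rn7s2, near-identical copies of the 7SL RNA of the signal recognition particle, were higher by 1.41 and 1.32 on the log2 scale, with tangerine values from 1.76 to 33.3 CPM for Rn7s1 against 1.77 to 10.9 CPM on control. Gm47283, on chromosome Y, was lower by 0.85 and the noncoding gene Gm45301 by 0.94 log2 units, each with tangerine livers inside and below the control range.

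The cytochrome P450 family was then described as a whole. Of 99 listed genes, 70 passed the low-count filter and 52 of these were higher on tangerine and 18 lower, a share of 74.3% higher against 44.6% of all tested genes. Their median log2 fold change was 0.09 against -0.01 for all genes. After adjustment 2 of 70 passed, Cyp2c29 and Cyp1a2. At an unadjusted p under 0.05, 12 genes were higher and 1 lower, together 18.6% of the 70. Over all tested genes 2.32% were higher and 3.16% lower at that p. The summed abundance of the family had a median of 17964 CPM in control livers and 20044 CPM in tangerine livers, with ranges of 14876 to 20144 and 17189 to 23404 CPM that overlapped. Leaving out tangerine libraries 192 and 216 was a setting added after the data were seen. In it 55 of 70 were higher, and 10 higher genes had an unadjusted p under 0.05.

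**Figure D3:**
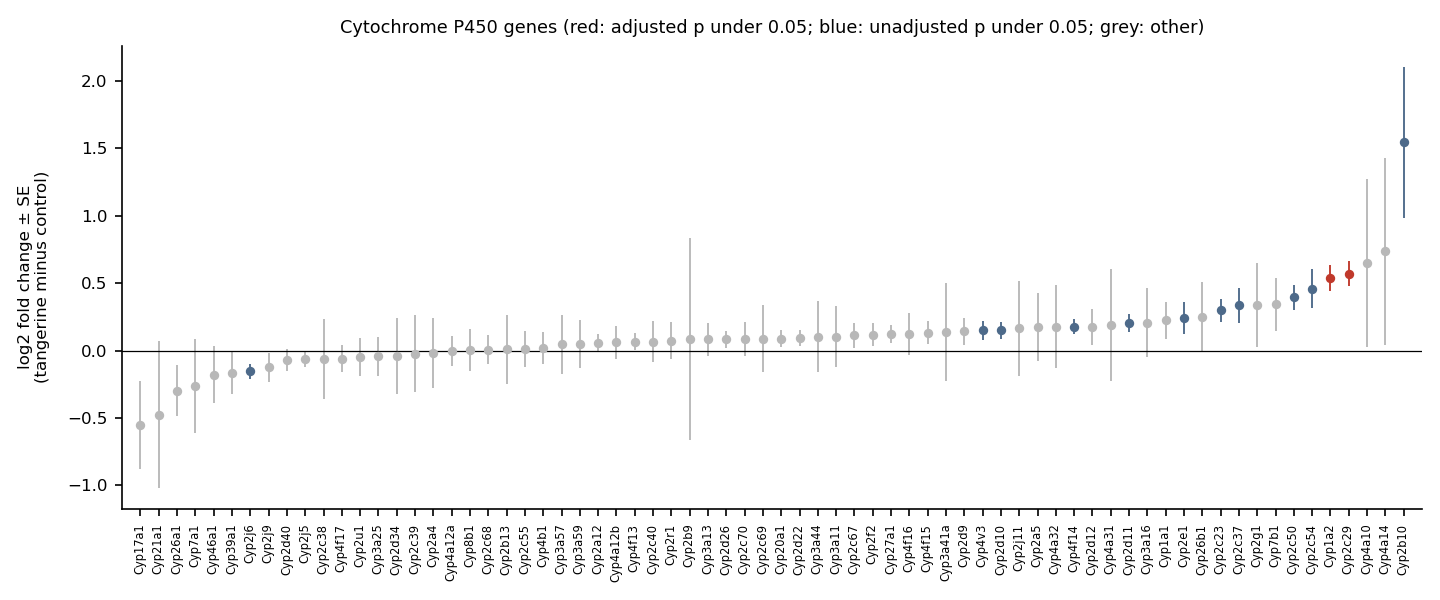
Log2 fold change of tangerine against control with its SE (vertical axis) for the 70 tested P450 genes, ordered by that value (horizontal axis). The 2 red points at 0.54 and 0.57 are Cyp1a2 and Cyp2c29, 52 points lie above 0, and Cyp2b10 at 1.55 has a wide error.

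Within the Cyp2c family, 11 of 13 tested genes were higher, and the same number without tangerine library 192 alone. In the added setting without both tangerine libraries 192 and 216, 13 of 13 were higher. Cyp2c50 ranged from 298 to 440 CPM on control (median 353) and from 368 to 675 CPM on tangerine (median 444). All 12 tangerine livers lay above the control median and 7 above every control, but the log2 fold change of 0.40 (SE 0.092) had an edgeR adjusted p of 0.255. Cyp2c23, a renal and hepatic arachidonic acid epoxygenase that shares no 50-base window with another gene, was 268 ± 44.5 CPM on control and 330 ± 44.9 CPM on tangerine (0.30, edgeR adjusted p 0.587, SE 0.085). Cyp2c54 and Cyp2c37, chosen after their values were seen, differed by 0.46 (SE 0.144) and 0.33 (SE 0.133).

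Compared per kilobase of exon, Cyp2e1, which oxidises ethanol, was the most abundant P450 gene on both diets, at 2556 CPM per kilobase on control and 3018 on tangerine. Its log2 fold change was 0.24 (edgeR adjusted p 0.912, SE 0.118). On this scale Cyp2c29 was the 10th most abundant of the 70 on control, at 228 CPM per kilobase, and the 6th on tangerine, at 338. Cyp1a2 was the 12th, at 199, and the 10th, at 290 CPM per kilobase. The length used is that of all annotated exons of a gene. For Cyp2c29 it is 3061 bases, against 1783 in its longest coding transcript, so its rank depends on the length chosen. Cyp2b10, the classical CAR target, was near the detection limit, at 0.206 ± 0.184 CPM on control and 0.629 ± 0.693 CPM on tangerine (log2 fold change 1.55, edgeR adjusted p 0.683, SE 0.561). The PXR target Cyp3a11 was at 444 ± 98.2 and 477 ± 196 CPM (0.10, SE 0.228).

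The receptors themselves and their other targets were examined next. Of 11 tested genes of the AHR list, 9 were higher, with a median of 0.04, and Cyp1a2 alone passed. Over all tested genes 44.6% were higher and 0.0142% passed. Ahr was at 37.2 CPM on control and 36.3 CPM on tangerine (log2 fold change -0.04, SE 0.160). On the same scale its partner Arnt differed by 0.03 (SE 0.066), and the target Tiparp was at 10.5 and 10.1 CPM (-0.05, SE 0.120). These 3 differences were smaller than their SE.

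Of 31 tested genes of the CAR and PXR list, 22 were higher (median 0.08), against 44.6% of all tested genes. Cyp2c29 alone passed, where 0.0142% of all tested genes did. At an unadjusted p under 0.05, 6 were higher and 0 lower (2.32% and 3.16% of all tested genes). The median was 0.015 with limma-voom and sample weights. With the clock score described below as covariate, 19 of 31 were higher. Nr1i3, which codes for CAR, was at 20.2 ± 5.26 and 22.1 ± 8.98 CPM (log2 fold change 0.13, SE 0.171), and Nr1i2, which codes for PXR, at 58.8 and 55.7 CPM (-0.08, SE 0.108). Por, the reductase that supplies P450 enzymes with electrons, was at 156 ± 61.6 and 196 ± 101 CPM (0.33, SE 0.288, and 0.20 without tangerine library 216). Alas1, the first enzyme of haem synthesis, was at 360 ± 257 and 254 ± 129 CPM (-0.50, SE 0.412), and without control library 208 the difference was -0.22. Neither passed the threshold.

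Of 28 tested NRF2 targets, 20 were higher (median 0.07) and 0 passed, with 5 higher and 0 lower at an unadjusted p under 0.05 (2.32% and 3.16% of all tested genes). Without tangerine library 192 the 5 became 3. Osgin1, an oxidative stress response gene, ranged from 46.3 to 161 CPM on control (median 78.2) and from 44.8 to 195 CPM on tangerine (median 139). The groups overlapped over most of their range, with a log2 fold change of 0.72 (edgeR adjusted p 0.587, SE 0.239). Nqo1 was at 3.24 and 3.40 CPM (0.07, SE 0.149), Srxn1 at 33.7 and 35.3 CPM (0.07, SE 0.095) and Gclc, of glutathione synthesis, at 280 and 274 CPM (-0.03, SE 0.113). Hmox1, haem oxygenase, was higher by 0.39 (SE 0.167), and by 0.17 without tangerine library 192.

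Among phase II genes no member passed. All 10 tested UDP-glucuronosyltransferases were higher, from 0.04 to 0.25 (median 0.11), led by Ugt2b35 at 132 ± 25.7 and 158 ± 21.8 CPM (0.25, SE 0.104). Of the 21 listed, 9 genes were listed at 0, most of them Ugt1a genes that share exons with each other. Of 22 tested glutathione S-transferases 15 were higher (median 0.05), of 15 carboxylesterases 11 (median 0.09) and of 6 sulfotransferases 2 (median -0.02). Ces2a, a drug-hydrolysing carboxylesterase, was at 183 ± 20.5 and 211 ± 24.8 CPM (0.20, edgeR adjusted p 0.672, SE 0.074), above the control median in 12 of 12 tangerine livers. Of 20 drug and organic ion transporters 15 were higher (median 0.07), and of 19 alcohol and aldehyde dehydrogenases 15 (median 0.08).

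Position along the liver lobule was described through zonation genes. Of 22 tested pericentral genes, 19 were higher on tangerine (median 0.16), 2 passed (again Cyp2c29 and Cyp1a2), and 8 higher and 0 lower genes had an unadjusted p under 0.05. Over all tested genes 44.6% were higher, and 2.32% were higher and 3.16% lower at that p. The list holds several P450 genes already described, so it is not independent of the P450 counts. Of 23 tested periportal genes 10 were higher (median -0.01) and 0 had an unadjusted p under 0.05. Glul, glutamine synthetase, which marks the innermost pericentral hepatocytes, was at 622 ± 91.8 and 613 ± 92.6 CPM (log2 fold change -0.02, SE 0.082). Gls2, a periportal glutaminase, was at 313 and 324 CPM (0.05, SE 0.081). Neither defining gene showed a difference beyond its SE. Oat, another pericentral marker, was listed at 0.

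**Figure D4:**
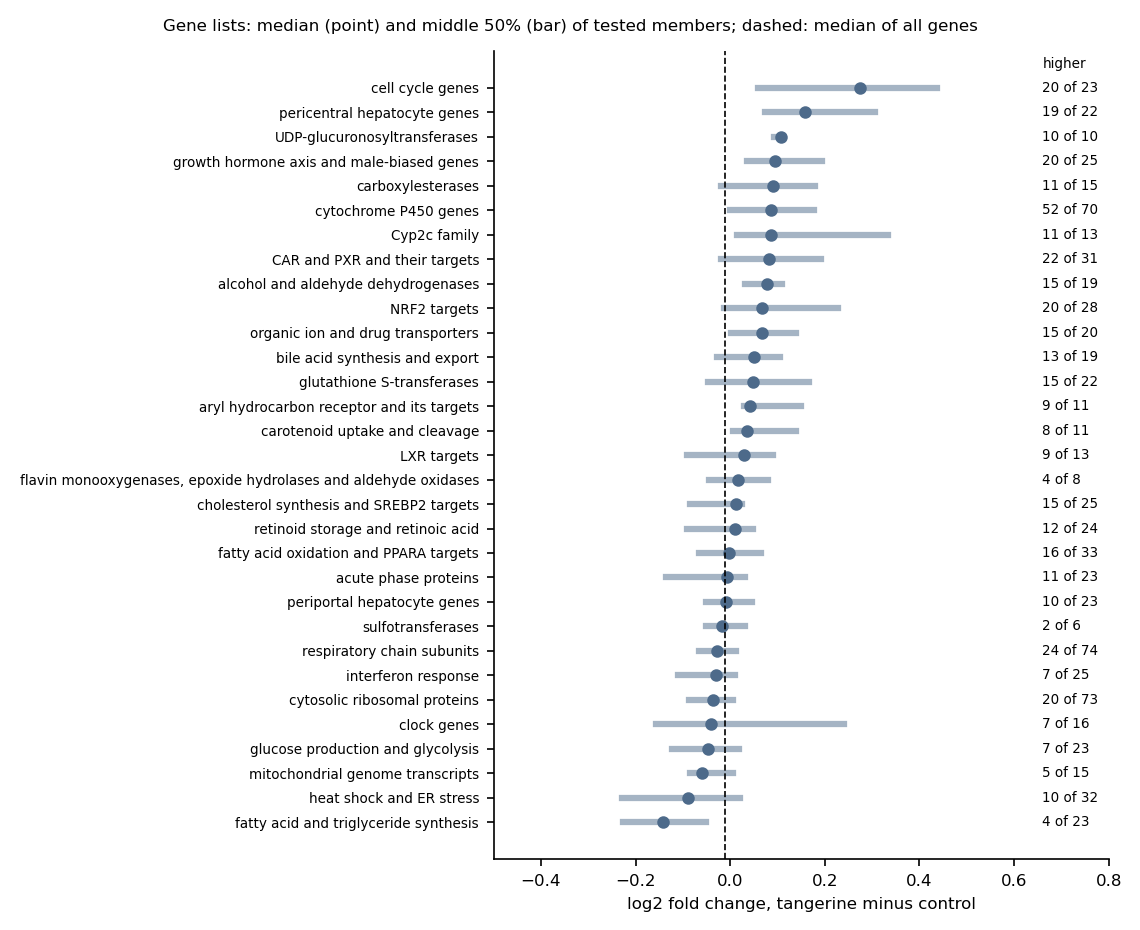
Log2 fold change of tangerine against control (horizontal axis) for 31 gene lists (vertical axis), as the median and middle 50% of the tested members, with the number higher of the number tested at the right. Pericentral and P450 genes lie to the right of the dashed line, the median of all genes, and fatty acid synthesis and heat shock genes to its left.

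Genes that act on carotenoids differed little. Scarb1, the receptor that takes up carotenoids and cholesterol esters, was at 198 ± 22.8 and 200 ± 14.0 CPM (log2 fold change 0.02, SE 0.075). Bco1, which cleaves beta-carotene at its centre, was at 14.5 ± 1.88 and 13.9 ± 2.65 CPM (-0.06, SE 0.087). Bco2, which cleaves lycopene and other carotenoids off centre, was at 15.8 ± 1.30 and 16.1 ± 1.71 CPM (0.03, SE 0.069), but it overlaps Il18, whose counts came to 77.9% of its own. Each of these differences was within 1 SE of 0. Of 11 tested genes of carotenoid uptake and cleavage 8 were higher (median 0.03) and 0 passed.

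Of 24 tested retinoid genes 12 were higher and 12 lower (median 0.01), and the sign of that median changed with other settings. Cyp26a1, which breaks down retinoic acid and is induced by it, was at 7.17 ± 2.20 CPM on control and 5.84 ± 2.07 CPM on tangerine (-0.30, SE 0.188). Rarb, a retinoic acid receptor induced by its ligand, was at 3.15 and 2.75 CPM (-0.19, SE 0.173), but the overlapping Top2b had many times its counts. Aldh1a7 was at 158 ± 25.2 and 135 ± 17.0 CPM (-0.23, edgeR adjusted p 0.811, SE 0.095), below the control median in 11 of 12 tangerine livers. Lrat, which esterifies retinol for storage, was listed at 0.

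In lipid metabolism, 4 of 23 tested genes of fatty acid and triglyceride synthesis were higher and 19 lower, with a median of -0.14, and 0 passed. Leaving out single libraries moved that median between -0.22 (without tangerine 160) and -0.06 (without control 159). Scd1, the stearoyl-CoA desaturase, ranged from 13300 to 46760 CPM on control and from 5397 to 24434 CPM on tangerine, with 4 tangerine livers below every control. Its log2 fold change was -0.56 (edgeR adjusted p 0.732, SE 0.214), and -0.41 without control library 189. Fasn, fatty acid synthase, differed by -0.20 (SE 0.284) and Elovl6, an elongase, by -0.45 (SE 0.294). Plin4, a lipid droplet coat protein, was at 2.92 ± 0.964 and 1.67 ± 0.794 CPM (-0.79, edgeR adjusted p 0.587, SE 0.242), but the overlapping Hdgfl2 had several times its counts.

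Of 25 cholesterol synthesis and SREBP2 genes 15 were higher (median 0.01), and of 33 genes of fatty acid oxidation 16 (median -0.003). Of 19 bile acid genes 13 were higher (median 0.05). Cyp7a1, the rate-limiting enzyme of bile acid synthesis, was at 88.9 ± 55.5 and 74.0 ± 31.9 CPM (log2 fold change -0.26, SE 0.347) and Cyp8b1 at 326 and 328 CPM (0.01, SE 0.155). Both were within the spread between mice.

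In sugar metabolism 7 of 23 tested genes were higher and 16 lower (median -0.05), and 0 passed. Slc2a5, the fructose transporter, ranged from 4.54 to 11.4 CPM on control (median 8.03) and from 7.91 to 15.7 CPM on tangerine (median 9.21). Of the tangerine livers 11 lay above the control median and 5 above every control (log2 fold change 0.41, edgeR adjusted p 0.587, SE 0.124). On red powder its mean was 6.34 CPM. G6pc, the last enzyme of glucose release, was at 756 ± 324 and 489 ± 330 CPM (-0.63, edgeR adjusted p 0.875, SE 0.294), with 6 tangerine livers below every control.

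The share of counts taken by the 10 most abundant genes of each library was 21.2% ± 1.09 on control and 19.4% ± 0.945 on tangerine (SD, n = 12 each), a difference of -1.76 percentage points. Of 16 library measures this alone passed (two-sided permutation p 0.0002, adjusted 0.0032). Control livers ranged from 19.5% to 23.8% and tangerine livers from 17.6% to 20.8%, so the groups overlapped. Alb, which codes for serum albumin, took 8.03% ± 0.573 of counts on control and 7.23% ± 0.527 on tangerine, and Scd1 took 2.20% ± 0.969 and 1.49% ± 0.612. The differences in their means were -0.801 and -0.712 percentage points. In the fit over all genes, Alb had a log2 fold change of -0.15 (edgeR adjusted p 0.782, SE 0.061), with all 12 tangerine livers below the control median. Alb is the largest member of the summed hepatocyte markers, and Trf, also listed, held only 28 counts over the 36 libraries. The sum was lower by 9629 CPM (permutation p 0.0118, adjusted 0.0941), and 7 of the 9 tested markers were lower. The part of this shift in the P450 values was not tested.

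**Figure D5:**
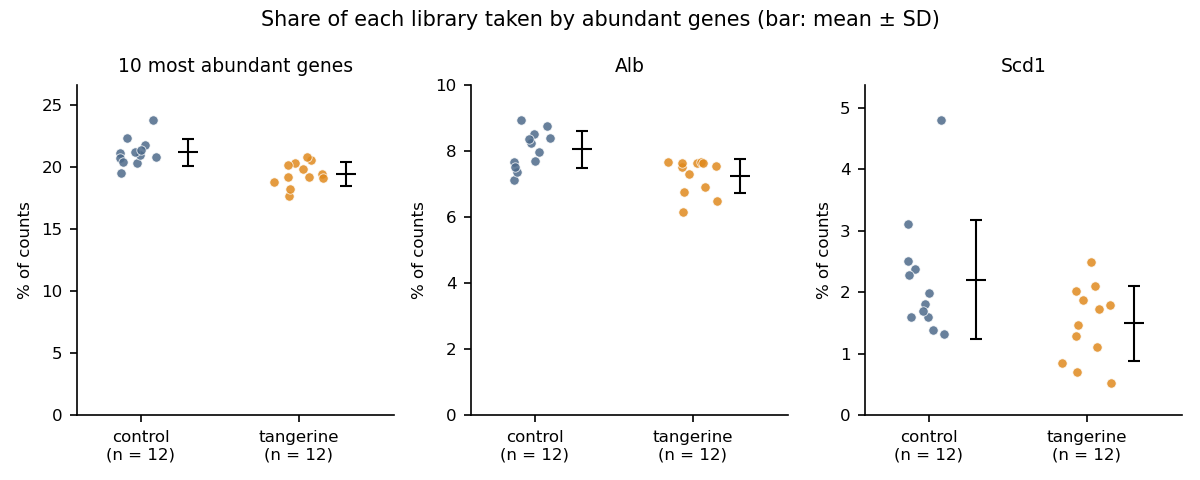
Percent of each library's counts (vertical axis) taken by its 10 most abundant genes, by Alb and by Scd1, in control and tangerine livers, with the mean and SD of 12 beside the points. The tangerine livers lie lower for the 10 genes together (19.4% against 21.2%), and the highest control liver for Scd1, at 4.80%, stands apart.

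In the lists of stress and immune genes 0 members passed. Of 32 heat shock and endoplasmic reticulum stress genes 22 were lower (median -0.09), with 3 lower at an unadjusted p under 0.05. Over all tested genes 3.16% were lower at that p. Creld2, induced when proteins misfold in the endoplasmic reticulum, ranged from 19.8 to 128 CPM on control and reached at most 44.6 CPM on tangerine (log2 fold change -0.73, edgeR adjusted p 0.608, SE 0.250). The heat shock gene Hspa1a was at 1.03 ± 0.938 and 0.447 ± 0.297 CPM (-1.19, SE 0.465). In both, high values in some control livers widened the control range.

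Of 23 acute phase genes 12 were lower (median -0.006). Mt1, a metallothionein that binds zinc, was at 9.41 ± 5.08 and 5.70 ± 1.29 CPM, with 8 tangerine livers below every control (log2 fold change -0.72, edgeR adjusted p 0.587, SE 0.245). Mt2 was below the control median in 12 of 12 tangerine livers (-1.30, SE 0.396), at 0.555 and 0.217 CPM. Fgg, a fibrinogen chain, was at 3054 ± 418 and 2675 ± 358 CPM, also below the control median in 12 of 12 (-0.19, edgeR adjusted p 0.819, SE 0.083). Of 25 interferon response genes 18 were lower (median -0.03).

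Of 23 tested cell cycle genes 20 were higher (median 0.28), and the median depended on 1 library. Without tangerine library 192, which also had the high stellate cell and neutrophil markers given above, 17 of 23 were higher and the median was 0.07. Ccnd1, cyclin D1, was at 14.9 ± 5.16 and 21.5 ± 6.53 CPM (log2 fold change 0.53, edgeR adjusted p 0.738, SE 0.203), but it overlaps LTO1, whose counts came to 61.7% of its own. Mcm2, of the replicative helicase, was at 1.93 and 2.63 CPM (0.44, SE 0.228). Col1a1 and Spp1 were higher by 0.84 and 0.58, and without library 192 by -0.06 and 0.03. Of the immune and vascular markers, all 8 tested T and NK cell genes were higher (median 0.23) and 0 had an unadjusted p under 0.05. That median was 0.06 with the mouse number and 0.45 with the clock score as covariate. The sums of these markers, at 8.71 ± 1.85 and 9.84 ± 1.64 CPM, did not differ beyond the spread (permutation p 0.123, adjusted 0.658).

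Hepatic RNA follows the time of day, so clock genes were examined. Of 16 tested genes 7 were higher and 9 lower (median -0.04), and 0 had an unadjusted p under 0.05. Dbp, an output gene of the clock, ranged from 1.84 to 105 CPM on control and from 29.1 to 148 CPM on tangerine, and Arntl, its core activator, from 2.15 to 23.0 and from 1.17 to 12.9 CPM. The wide ranges within each diet exceed the differences between them (log2 fold changes 0.39, SE 0.442, and -0.33, SE 0.399). Without control library 188 that of Arntl was -0.05. Dbp overlaps Sphk2, whose counts came to 82.8% of its own. A clock score, the first principal component of the 16 genes, had means of 0.822 ± 3.03 and 1.76 ± 2.30 (permutation p 0.401, adjusted 0.917). With this score as covariate Cyp2c29 and Cyp1a2 still passed.

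Growth hormone responsive and male-biased genes were higher in 20 of 25 (median 0.09) with 0 past the threshold. Selenbp2, a male-biased selenium binding protein, was at 163 ± 70.1 and 252 ± 105 CPM (log2 fold change 0.63, edgeR adjusted p 0.847, SE 0.288). Of 73 cytosolic ribosomal protein genes 53 were lower (median -0.04), of 74 respiratory chain genes 50 (median -0.03) and of 15 mitochondrial transcripts 10 (median -0.06). In this fit these medians lie close to that of all genes, and 0 members of these lists had an unadjusted p under 0.05. The shares higher were 27.4%, 32.4% and 33.3%, against 44.6% of all tested genes. The ribosomal and respiratory medians turned positive with limma-voom and without control library 137. Without tangerine libraries 192 and 216 the median of the mitochondrial transcripts was -0.12. In that setting 13 of 15 were lower, 1 of them at an unadjusted p under 0.05.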

How the data were processed

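The deposited table holds the authors' raw counts of reads for 53715 gene identifiers in 36 liver libraries, not normalized. Per the labels' protocols, RNA came from column kits and libraries from a directional kit. FastQC, Trimmomatic, edgeR and GRCm38.p6 are named in the submitters' processing notes. The aligner, counting program and strand setting are not given in the sources used here. Symbols and positions came from GENCODE M21 (GRCm38) and matched 53620 identifiers. The others held 0.00177% of counts.

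The low-count filter was filterByExpr (edgeR 4.0.16, count 10, total 15, share 0.7 beyond 10 libraries), and it kept 14068. Counts were scaled by trimmed mean of M values and tested with robust quasi-likelihood F tests on all 36 libraries, so that the red libraries helped estimate the spread. P-values were adjusted by Benjamini-Hochberg over all genes at 0.05. SE is the absolute fold change divided by the square root of F. CPM uses scaled library sizes, and log2 CPM a prior count of 2. Library measures were compared with 100000 permutations in scipy 1.17.1. The clock score held 79.0% of the variance of its 16 genes. The test was checked on simulated counts. P-values of the diet comparisons judge a difference against the spread between these libraries.

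Named genes were those past the threshold, the 10 higher and 10 lower with the smallest p and the 5 higher and 5 lower with the largest change at p under 0.01 (mean log2 CPM of at least 1), core members and up to 3 leading members of each of 43 lists, and neighbours of called genes. The lists and the comparison were chosen with earlier results of these data known. Other settings were DESeq2 1.42.0, limma 3.58.1 (voom), sva 3.50.0 (5 of 9 surrogate variables), no filter, a stricter filter, covariates, these 24 libraries alone and leaving out single libraries. Promoters are RefSeq sequences for GRCm38.p6; 2 of the 2 called genes matched.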

Additional observations from a re-analysis of the deposited data

Results flagged for a closer look

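Responses to tangerine and to red powder, which share the 12 control libraries, differed in a direct edgeR test of tangerine against red for 12 of the 164 named genes. Of all 14068 tested genes 1.71% passed in that test. Many named genes were chosen for their tangerine and control values, which that test shares in part, so nothing is read from the count. Cyp1a2 had a difference between the responses of 0.44 on the log2 scale (SE 0.095, adjusted p 0.0155), from 0.54 on tangerine and 0.10 on red. Slc2a5, the fructose transporter gene, differed by 0.78 (SE 0.125, adjusted p 0.00381), from 0.41 and -0.37. Bmf differed by 1.30 (SE 0.288, adjusted p 0.0173), from 0.97 and -0.33. The noncoding gene Gm47818 differed by -0.74 (SE 0.183, adjusted p 0.0274), from -0.70 and 0.04.

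The clock genes Dbp, Arntl and Npas2 differed by 1.84 (adjusted p 0.0289), -1.46 (adjusted p 0.0464) and -2.51 (adjusted p 0.0224), with responses to tangerine of 0.39, -0.33 and -1.10 and to red of -1.44, 1.13 and 1.41. The clock score ranged from -5.92 to 1.51 in red livers and from -1.10 to 5.04 in tangerine livers. It was not a covariate in the test of tangerine against red, and its part in the differences listed here was not tested. The fibrinogen genes Fgg and Fgb differed by -0.30 (adjusted p 0.0463) and -0.31 (adjusted p 0.0320), and Stat2, of interferon signalling, by -0.26 (adjusted p 0.0251). Gclc, of glutathione synthesis, differed by -0.43 (adjusted p 0.0359), from -0.03 on tangerine and 0.40 on red, and Cyp2c55 by -0.54 (adjusted p 0.0260), from 0.01 and 0.55.

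Pancreatic acinar transcripts, none of which passed the low-count filter, summed to 377 counts in tangerine library 216 (13.8 CPM) against at most 2 counts in a control library. Of the 14 markers 12 were highest in that library among the 24 tangerine and control libraries.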

How the results depend on the processing

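The number of genes past the adjusted threshold was 2 (2 higher, 0 lower). It was 7 with DESeq2 (6 higher, 1 lower), 1 with the mouse number as covariate (1 higher), and 127 with surrogate variables (86 higher, 41 lower), and with the clock score 1 gene passed as lower. Leaving out single libraries gave 2 to 4 genes past the threshold, all higher, with 4 without tangerine library 192 (Erbb3 and Ankrd55 were added), and 672 to 999 genes at an unadjusted p under 0.05. That last number, 770 in the reported fit, was 1193 with limma-voom, 1419 of 27335 genes with no low-count filter and 1956 with surrogate variables. Cyp2c29 passed in all 24 fits without 1 library and in all 10 other settings. Cyp1a2 passed in all 24 and in 9 of 10, the exception being the mouse number as covariate. Of 164 named genes 26 changed sign in some of the 34 settings while past the threshold neither there nor in the reported fit. Only sign changes of that kind were counted, so the 138 others were not shown to keep their sign throughout. The medians of 25 of 42 lists kept their sign in all 34 settings. The cause of these changes was not tested. No paired analysis was possible because no mouse number occurs in more than 1 diet. The count of reads per library does not limit the abundant genes, whereas genes near 0 counts, and genes overlapping others, are limited by counting.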

Other observations

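The gene with the largest absolute log2 fold change of all 14068, chosen after its values were seen, was Gpnmb, a glycoprotein of lipid-laden macrophages, at 3.27 (SE 0.900, edgeR adjusted p 0.553). Its median was 0.336 CPM on control and 0.356 CPM on tangerine, and a single tangerine liver reached 41.5 CPM. Without tangerine library 192 the fold change was 0.37. The same library held the highest values of Lyz2 (117 CPM), Spp1 (107 CPM), Col1a1 (101 CPM) and Col1a2 (90.4 CPM), and the fold change of Lyz2 was 0.41 with it and 0.12 without it.

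Cyp4a14 and Cyp4a10, P450 genes induced by fatty acids through PPARA, varied more between tangerine livers than between controls. Cyp4a14 ranged from 2.15 to 50.9 CPM on control (median 23.1) and from 1.23 to 200 CPM on tangerine (median 11.4). Its log2 fold change was 0.74 (SE 0.692), although 9 of 12 tangerine livers lay below the control median, and it was 0.05 without tangerine library 226. Cyp4a10 reached 341 CPM on tangerine against at most 102 CPM on control, with medians of 21.2 and 43.9 CPM.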
